A study of Homo sapiens with 12 samples.

Results

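Serpins and cystatins are the main protease inhibitor families of human cells, and their transcripts were followed in U937, a myelomonocytic acute myeloid leukemia (AML) cell line, after decitabine (DAC), all-trans retinoic acid (ATRA) or both. The genes were chosen by symbol: a SERPIN symbol of clades A to I followed by a number, or CST followed by a number, A or B. This gave 47 of the 44786 gene symbols measured, 35 serpins and 12 cystatins, with 268 transcripts between them, and for each gene the transcript with the highest mean over all libraries was taken. Described in full below are 11 genes that were expressed enough to be tested, 7 serpins and 4 cystatins.

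Serpins trap serine proteases by offering a loop as bait. The protease cuts the loop, stays bound to it and is deformed, so that 1 serpin molecule is used up for each protease molecule. Clade B serpins mostly stay inside the cell, where those of myeloid and lymphoid cells meet granule proteases such as neutrophil elastase, cathepsin G, proteinase 3 and the granzymes, whereas clades A, C, D, E and F are mostly secreted and act on coagulation, fibrinolysis and tissue proteases. Cystatins block cysteine proteases of the papain family, the lysosomal cathepsins, by filling the active site reversibly. Type 1 cystatins (CSTA, CSTB) are cytosolic, and type 2 cystatins carry a signal peptide and are secreted or, in the case of CST7, partly sent to the lysosome.

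The 12 libraries fell into 4 groups of 3, all from U937 kept in serum with GM-CSF, a myeloid growth factor. These were untreated cells, cells given 200 nM DAC, cells given 1 µM ATRA, and cells given both. DAC, a nucleoside analogue of deoxycytidine, is built into DNA, where it binds DNA methyltransferases and thereby lowers methylation, and ATRA activates the retinoic acid receptors. DAC was renewed daily with the medium over 3 days. The labels give 72 h for the treated and 96 h for the untreated cells and ATRA for the whole treatment, whereas the methods place ATRA at the last DAC dose and the harvest at 72 h. The series describes its replicates as technical triplicates of this single cell line, so that the p-values measure only the spread between these libraries. ATRA was dissolved in DMSO. The methods say that control cells received the matching solvents, whereas the labels call these libraries untreated, so which solvent each group received is not settled here. If the labelled hours hold, every comparison with untreated cells, and the interaction, also carries that difference in time. A change shared by all treated groups cannot be told apart from it or from an effect of solvent.

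Between 8042435 and 10683593 reads were counted per library, so that 3 reads, taken here as the limit that a count of 0 allows, equal 2.50 to 3.71 normalized reads. Values below are normalized read counts, the reads of a transcript divided by the size factor of its library. Of 13 myelomonocytic markers, 12 had reads in untreated cells, and CD14 was at 0 there. The sum over the 13 was 61482 to 68714 in untreated cells, 39055 to 56639 with DAC, 42034 to 59678 with ATRA and 36282 to 38969 with DAC + ATRA. The sum is mostly MPO (means of 52120 and 14973 in untreated and DAC + ATRA libraries), and over the other 12 it was 12477 to 14132 in untreated cells, 18914 to 24150 with DAC, 15778 to 22162 with ATRA and 22082 to 23517 with both. MPO fell with both agents (-1.80 on the log2 scale), while ITGAM, ITGAX and LYZ rose (3.75, 3.37 and 2.73). CEBPA rose too (0.74), as did CSF1R (3.54), which met the test minimum only through these libraries. CD4 (0.26), CSF3R (-0.64), FCGR1A (-0.28), CD33 (-0.15) and SPI1 (-0.10) did not pass with both agents. With DAC alone CSF3R passed as lower (-1.42, limma adjusted p = 0.000372). Of 15 markers of T cells, B cells, erythroid, epithelial, endothelial and hepatic cells and fibroblasts, 9 were at 0 in untreated cells, and the sum over the 15 was 299 to 326 in untreated cells, 536 to 727 with ATRA, 3502 to 3582 with DAC and 4472 to 4913 with DAC + ATRA. PECAM1 (138 in untreated cells and 2373 with DAC, means of 3 libraries) and CD79A (131 and 513) contributed most, while the erythroid marker HBB and the hepatic markers ALB and APOB were at 0 in all 12 libraries. The rows of CD14, HBB and ALB have 0 of 1356, 3 of 628 and 72 of 2285 exon bases free of overlap with other transcripts, so that reads there could have been lost. The part of these marker changes in the serpin and cystatin results was not tested. ATRA library 9 stood further from the other ATRA libraries (median absolute log2 difference 0.359 and 0.331) than any other library from a library of its own group (0.208 to 0.297).

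Most of the 47 genes were silent or nearly so in U937. No read was counted for 22 of them in any of the 12 libraries on any of their transcripts, 17 serpins and 5 cystatins. A further 13 had reads but did not reach 10 normalized reads in 3 libraries, the minimum for the test. Among those without reads, 8 had a transcript with at least 500 exon bases that no other transcript of the same strand overlaps in GENCODE 44, so that reads there could have been assigned, and 2 had fewer than 100 such bases on every transcript. The values are counted per transcript, and a read in bases shared by several transcripts can be lost or moved, depending on the counting mode, which is not given in the sources used here. Among the 11 tested genes the bases free of overlap ran from 0 for SERPINB6 (of 1313 exon bases) and 40 for CSTB (of 588) to 4963 for SERPINE2 (of 5989), and none of the 11 transcripts overlapped an exon of the opposite strand. For 9 of the 11 the chosen transcript held at least 94.0% of the reads of its gene, and for SERPINB6 and SERPINB8 it held 64.7% and 63.3%.

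**Figure D1:**
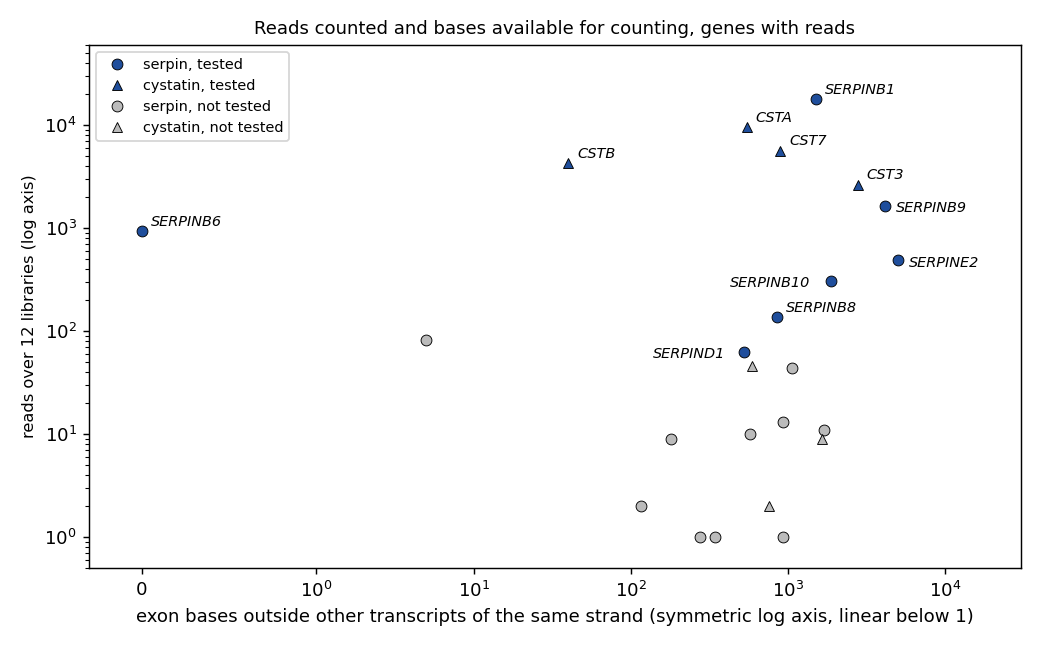
Reads summed over 12 libraries (vertical log axis) against the exon bases of the chosen transcript that no other transcript of the same strand overlaps in GENCODE 44 (horizontal symmetric log axis, linear below 1), for 24 serpin and cystatin genes with at least 1 read. Filled blue symbols are the 11 tested genes; SERPINB6, with 0 such bases, and CSTB, with 40, lie far to the left of the other tested genes although they had 928 and 4262 reads.

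DAC moved most of the tested inhibitors, in both directions. With DAC, 5 of 11 rose (SERPINB9, SERPIND1, CSTB, CST7 and CST3) and 3 fell (SERPINB10, SERPINE2 and SERPINB1) at an adjusted p below 0.01, where 33.5% of all 19373 tested transcripts were called, 22.2% as higher and 11.3% as lower. By family, 2 of the 7 serpins rose and 3 fell, while 3 of the 4 cystatins rose and none fell. Without DAC library 4 only 1 cystatin, CSTB, rose (CST3 adjusted p = 0.0234, CST7 0.0152), and CSTA passed as lower with TMM scaling, with scaling to the library total and with edgeR and TMM factors. The median log2 fold change was -0.49 over the 7 serpins, 0.54 over the 4 cystatins and 0.05 over all tested transcripts. In bulk RNA, more transcripts in each cell and more cells with the transcript cannot be told apart. SERPINB9 and SERPIND1 were below 10 in every untreated library and entered the test only through treated libraries, so that their being called is in part fixed by that filter. The split depended on scaling and tool: with TMM scaling in limma 5 rose and 4 fell, with TMM factors in edgeR 5 rose and 5 fell, and with scaling to the library total, which lowers the median log2 fold change of all transcripts from 0.05 to -0.07, 4 rose and 4 fell.

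ATRA alone changed few of them. CST7 and SERPINB10 fell and none rose, 2 of 11 against 6.97% of all transcripts (5.11% higher, 1.87% lower). With DAC + ATRA, 3 rose (SERPINB9, SERPIND1 and CST3) and 3 fell (SERPINB10, CST7 and CSTA), 6 of 11 against 41.6% of all transcripts (25.5% higher, 16.1% lower). With scaling to the library total these counts became 3 and 5, as SERPINB1 and SERPINE2 then also passed as lower. Relative to DAC alone, the combination raised CST3 and lowered SERPINB10, CST7 and CSTA, 4 of 11 against 8.77% of all transcripts (5.18% higher, 3.59% lower). Relative to ATRA alone, 4 genes were higher (SERPINB9, SERPIND1, CST3 and CSTB) and 3 lower (SERPINB10, SERPINE2 and CSTA), 7 of 11 against 29.4% (19.1% higher, 10.2% lower). SERPINB9 and SERPIND1 reached 10 normalized reads only in libraries with DAC. Their rises with DAC + ATRA, against untreated cells and against ATRA alone, are therefore also in part fixed by the filter. These comparisons share their control libraries and are not independent of each other. With 11 genes, none of these shares was tested against the background.

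**Figure D2:**
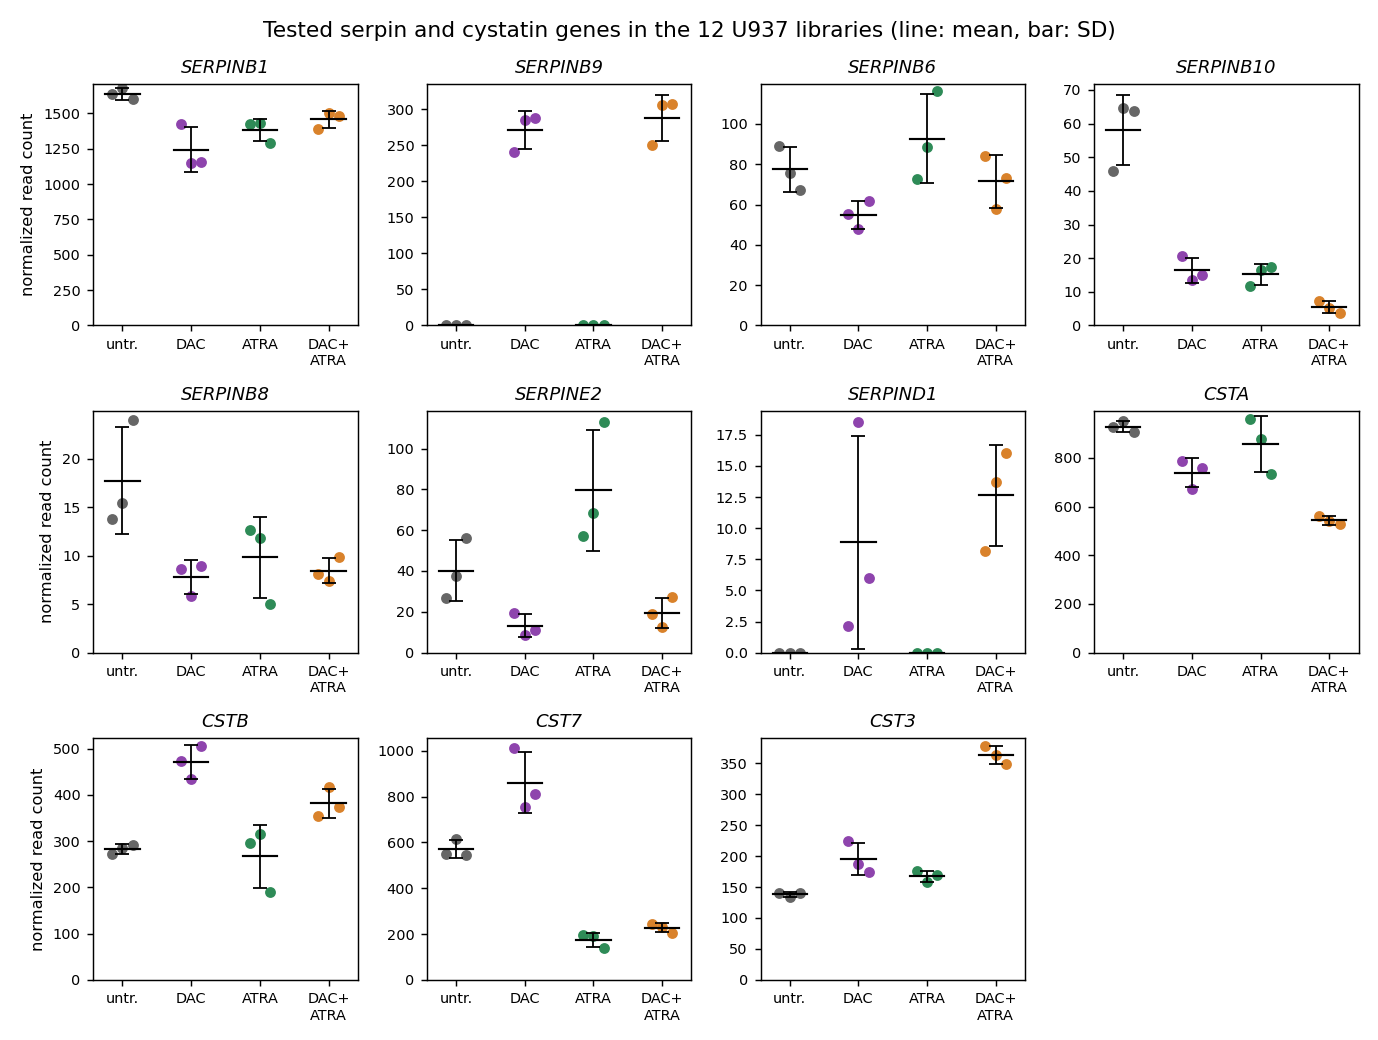
Normalized read counts (vertical axes, linear from 0) of the 11 tested serpin and cystatin genes in the 12 libraries, by treatment group (untr., untreated). Points are libraries, horizontal lines the means and bars the SD of 3 libraries; SERPINB9 is at 0 to 0.910 in untreated and ATRA libraries and at 240 to 306 with DAC, while CST7 lies highest with DAC and lowest with ATRA.

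Chromosome 6 carries SERPINB1, SERPINB9 and SERPINB6 close together on the minus strand. With DAC, SERPINB9 rose, SERPINB1 fell slightly and SERPINB6 did not pass. SERPINB9, the cytosolic inhibitor of granzyme B (hg38, chr6:2887270-2903309, 7 exons), had no read in the 3 untreated libraries. It had 240, 284 and 288 normalized reads in the DAC libraries, 0, 0.910 and 0 in the ATRA libraries, and 250, 305 and 306 in the DAC + ATRA libraries. The groups with and without DAC did not overlap, and a single read in ATRA library 8 was the only one outside the DAC groups. Against 3 reads per untreated library, a mean of 2.75 normalized reads, the mean was at least 98.4-fold higher with DAC and at least 104-fold higher with DAC + ATRA (adjusted p = 1.16e-17 and 5.93e-18). The combination and DAC alone differed by 0.08 on the log2 scale (95% interval -0.51 to 0.68, adjusted p = 0.899), which leaves room for a change of up to 0.68 in log2.

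SERPINB1, the cytosolic inhibitor of neutrophil elastase, cathepsin G and proteinase 3 (chr6:2832332-2841863, 7 exons), was expressed throughout and changed little. Its counts were 1635, 1680 and 1599 in untreated cells, 1428, 1146 and 1158 with DAC, 1423, 1431 and 1290 with ATRA, and 1390, 1505 and 1478 with both. All 9 treated libraries were below all 3 untreated ones. The log2 fold change passed the threshold with DAC only (-0.40 ± 0.10 (SE), adjusted p = 0.00218), and leaving out DAC library 5, DAC library 6 or untreated library 2 raised this p to 0.0163, 0.0157 and 0.0142. With ATRA it was -0.25 ± 0.10 (adjusted p = 0.137) and with both -0.17 ± 0.10 (adjusted p = 0.171). Scaling to the library total turned these into -0.32 and -0.32 and brought both past the threshold (adjusted p = 0.00934 and 0.00201), so that only the call with DAC did not depend on the scaling.

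SERPINB6, which inhibits cathepsin G (chr6:2948196-2971661, 7 exons), passed in no comparison. It had 89.2, 75.6 and 67.4 normalized reads in untreated cells, 55.1, 47.7 and 61.8 with DAC, 72.9, 88.3 and 117 with ATRA, and 84.1, 57.9 and 72.9 with both. The DAC libraries lay below the untreated ones without overlap (log2 fold change -0.49 ± 0.19, adjusted p = 0.0440), which did not pass at 0.01. Its exons are fully shared with other transcripts of the same strand, so its value rests on how shared reads were assigned.

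The bases before the starts of SERPINB9 and SERPINB1, neighbours on the same strand, are shown because 1 of them went from no reads to at least 240 normalized reads with a drug that lowers DNA methylation and the other was on throughout, and those before SERPIND1 because it too was at 0 in untreated cells and read with DAC. They are the 250 bases upstream of the start in RefSeq (GRCh38.p14), printed 5′ to 3′ on the gene's strand with each CG dinucleotide, the target of DNA methyltransferases, in capitals.
SERPINB9, chr6:2903310-2903559, minus strand: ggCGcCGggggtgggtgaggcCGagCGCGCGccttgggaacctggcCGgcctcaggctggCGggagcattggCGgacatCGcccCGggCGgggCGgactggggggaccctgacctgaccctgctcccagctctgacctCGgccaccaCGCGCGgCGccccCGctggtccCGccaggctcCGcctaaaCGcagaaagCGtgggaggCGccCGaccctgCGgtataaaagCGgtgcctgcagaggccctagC
SERPINB1, chr6:2841864-2842113, minus strand: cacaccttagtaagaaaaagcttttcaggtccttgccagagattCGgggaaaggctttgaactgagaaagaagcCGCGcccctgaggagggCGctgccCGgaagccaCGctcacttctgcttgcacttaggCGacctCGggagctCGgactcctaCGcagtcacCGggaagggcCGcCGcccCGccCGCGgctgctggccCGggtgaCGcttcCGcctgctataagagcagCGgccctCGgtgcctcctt
SERPIND1, chr22:20773863-20774112, plus strand: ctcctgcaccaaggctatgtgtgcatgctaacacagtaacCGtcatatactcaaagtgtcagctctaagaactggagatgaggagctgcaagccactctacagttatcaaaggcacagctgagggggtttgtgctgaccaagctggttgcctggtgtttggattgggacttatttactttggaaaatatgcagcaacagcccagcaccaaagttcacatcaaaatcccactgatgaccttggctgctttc
The counted transcripts of all 3 genes begin at these starts. The stretch before SERPINB9 holds 27 CG dinucleotides, that before SERPINB1 21 and that before SERPIND1 1. Over the full window of 300 bases, which runs 50 bases past the start, the counts are 35, 27 and 2, against a median of 14 over 34943 RefSeq promoters. SERPINB9 ranks at percentile 85.9 for CG dinucleotides, SERPINB1 at percentile 71.9 and SERPIND1 at percentile 11. Whether CG content bears on the values with DAC was not tested. DNA methylation was not analysed here.

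In the same window the retinoid receptor half-site AGGTCA, searched on both strands and present in 13.8% of all promoters, was found 2 times before SERPINB9, 1 time just after the start of SERPINB1 and 1 time before SERPIND1. A TATAAA motif, present in 11.6% of promoters, begins 30 bases before the start of SERPINB9, and the STAT motif TTCNNNGAA (7.66% of promoters) was found 1 time each at SERPINB1 and SERPIND1. The core of the interferon-stimulated response element (3.57% of promoters) was in none of the 3. CST3, which rose with both agents, held none of the 4 motifs in its window. The other tested genes matched to a RefSeq promoter were SERPINB6, SERPINE2 and SERPINB8, 7 of the 11 in all. AGGTCA was found 1 time at a start of SERPINE2, and TATAAA 1 time at a start of SERPINB6. Other starts of these genes held none of the 4 motifs. SERPINB8 held TTCNNNGAA 1 time and TATAAA 2 times. The starts with a motif lie 48698, 9531 and 15095 bases from those of the counted transcripts. CST7 and SERPINB10, the only ones of the 11 called with ATRA alone, had no matched promoter, nor had CSTA and CSTB. Whether the motifs bear on the changes with ATRA was not tested.

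On chromosome 18, SERPINB10 was lower in every treated group than in untreated cells. SERPINB10 (chr18:63907958-63936111, 8 exons) encodes bomapin, a clade B serpin known from hematopoietic and monocytic cells. It had 46.0, 64.6 and 63.7 normalized reads in untreated cells, 20.5, 13.6 and 14.9 with DAC, 11.6, 16.4 and 17.5 with ATRA, and 7.23, 5.26 and 3.71 with both. The untreated libraries were highest and the DAC + ATRA libraries lowest, with no overlap, while the 2 single agents overlapped each other. The log2 fold change was -1.77 ± 0.30 with DAC, -1.87 ± 0.30 with ATRA and -3.23 ± 0.30 with both (adjusted p = 2.22e-05, 4.47e-05 and 9.81e-10). The DAC + ATRA libraries held only 8, 5 and 3 reads, the last at the limit that a count of 0 allows, so the size of that fall is uncertain. The combination was also lower than DAC alone (-1.46 ± 0.30, adjusted p = 0.000881) and than ATRA alone (-1.35 ± 0.30, adjusted p = 0.000588). These last calls are less certain than the others: with DESeq2 the adjusted p was 0.0156 and 0.0102, and without DAC library 4 the first rose to 0.0104.

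SERPINB8, an inhibitor of furin (chr18:63985176-64005667, on a transcript of 2 exons), was near the detection limit of the test. Its counts were 13.8, 15.5 and 24.0 in untreated cells, 8.65, 5.85 and 8.96 with DAC, 12.7, 11.8 and 4.99 with ATRA, and 8.14, 7.37 and 9.89 with both. Each treated group lay below the untreated libraries without overlap, but no comparison passed with limma (with DAC -1.07 ± 0.37, adjusted p = 0.0210). With edgeR and TMM factors the difference with DAC did pass (-1.22, adjusted p = 0.00903). The transcript counted for furin itself had 17 reads over the 12 libraries, none of them in untreated or ATRA libraries. It held 70.8% of the 24 reads of the gene and has 124 of 4247 exon bases free of overlap, so that reads could have been lost.

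SERPINE2, the clade E serpin protease nexin 1, an inhibitor of thrombin and urokinase, was read on a transcript with a retained intron (chr2:223975153-223982780, 2 exons), which held 96.1% of the reads of the gene. The values below are those of this transcript, not of a coding one. It had 26.7, 37.3 and 56.3 normalized reads in untreated cells, 19.5, 8.77 and 11 with DAC, 57, 68.3 and 113 with ATRA, and 19.0, 12.6 and 27.2 with both. The DAC libraries were all below the untreated ones and the ATRA libraries all above them, if only just. The fall with DAC passed (-1.56 ± 0.33, adjusted p = 0.000477), the difference with ATRA did not (0.97 ± 0.33, adjusted p = 0.0604), and neither did that with both agents (-0.99 ± 0.33, adjusted p = 0.0141). The last of these lay near the threshold and passed without the filter on low values (adjusted p = 0.00266), with only the groups compared (0.00654), with scaling to the library total (0.00914), with rows summed by symbol (0.00937) and without ATRA library 9, DAC library 4, DAC + ATRA library 12 or untreated library 1 (0.00528 to 0.00955). DAC + ATRA was lower than ATRA alone (-1.97 ± 0.33, adjusted p = 3.68e-05).

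SERPIND1, heparin cofactor II, an inhibitor of thrombin known from liver and plasma (chr22:20774113-20787720, 5 exons), had no read in untreated and ATRA libraries. It had 2, 19 and 6 reads in the DAC libraries, or 2.16, 18.5 and 5.98 normalized, and 9, 13 and 13 reads with both, or 8.14, 13.7 and 16.1 normalized. Reads were counted in the 6 libraries with DAC and in none of the 6 without, but the 2 reads of DAC library 4 are below the limit of 3 that a count of 0 allows. Against the limit of 3 reads per untreated library the mean was at least 3.23-fold higher with DAC and at least 4.59-fold higher with both (adjusted p = 3.10e-05 and 6.78e-07). The value with DAC rests on DAC library 5, without which it is at least 1.48-fold higher. The hepatic markers ALB and APOB were listed at 0 in the same libraries.

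Below the minimum for testing, 2 genes reached 10 normalized reads in a library. CST6, cystatin E/M, an inhibitor of legumain, had 0 reads in untreated cells, 7, 6 and 13 with DAC, 0, 0 and 1 with ATRA, and 8, 8 and 3 with both. SERPINI1, neuroserpin, an inhibitor of tissue plasminogen activator, had 0.919, 4.55 and 3.69 normalized reads in untreated cells, 7.57, 9.74 and 8.96 with DAC, 3.17, 2.73 and 8.32 with ATRA, and 14.5, 5.26 and 11.1 with both, on a transcript with 5 bases of its own. SERPINH1, the collagen chaperone HSP47, was singled out after its values were seen: it had 1.84, 0.910 and 0 normalized reads in untreated cells, 8.65, 7.79 and 9.96 with DAC, 1.06, 0.910 and 0.832 with ATRA, and 4.52, 3.16 and 4.94 with both. CST6 and SERPINH1 were thus higher in every DAC-treated library than in any library without DAC, and neither was tested in the main analysis. The other 10 untested genes with reads had between 1 and 13 reads on the chosen transcript over all 12 libraries.

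Of the cytosolic cystatins, CSTA passed as lower with DAC + ATRA and CSTB as higher with DAC. CSTA, stefin A (chr3:122325248-122341969, 3 exons), had 926, 951 and 907 normalized reads in untreated cells, 787, 674 and 757 with DAC, 960, 877 and 734 with ATRA, and 563, 542 and 526 with both. The DAC + ATRA libraries were below all other libraries. It fell by 0.77 on the log2 scale (SE 0.11, adjusted p = 2.17e-06) with both agents, and it was lower with both than with ATRA alone (-0.65 ± 0.11, adjusted p = 3.74e-05). With DAC alone the difference was -0.33 ± 0.11 (adjusted p = 0.0177), which passed with TMM scaling (adjusted p = 0.00509) and with scaling to the library total (0.000256), and also with edgeR and TMM factors (0.00369), without ATRA library 9 (0.00395), with only the groups compared (0.00876) and with rows summed by symbol (0.00885). The step from DAC to DAC + ATRA (-0.44 ± 0.11, adjusted p = 0.00719) no longer passed in 8 of the 12 fits that left out a library, those without DAC libraries 4 or 6 or any of the untreated or DAC + ATRA libraries, with adjusted p of 0.0103 to 0.0416.

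CSTB, stefin B (chr21:43773950-43776308, 3 exons), rose with DAC. Its counts were 272, 286 and 292 in untreated cells, 473, 434 and 506 with DAC, 297, 316 and 189 with ATRA, and 354, 417 and 373 with both. All 6 libraries with DAC were above all 6 without it, and ATRA library 9 was the lowest. The log2 fold change with DAC was 0.73 ± 0.15 (adjusted p = 0.000255), and that with both agents, 0.43 ± 0.15, did not pass in the shared fit (adjusted p = 0.0184) but did when ATRA library 9 was left out of it (0.00137) and when only the groups compared were fitted (0.00110). The combination exceeded ATRA alone by 0.54 ± 0.15 (adjusted p = 0.00460), but not without ATRA library 9 (0.31, adjusted p = 0.0389), DAC + ATRA library 11 (0.0311) or DAC + ATRA library 12 (0.0135), nor with only these groups fitted (0.0175).

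The type 2 cystatins CST7 and CST3 differed in how they moved with ATRA. CST7 encodes cystatin F, which is made by immune cells and inhibits cathepsin C, the protease that activates granule serine proteases (chr20:24949269-24959928, 4 exons, all bases free of overlap). It had 550, 616 and 545 normalized reads in untreated cells, 1013, 757 and 814 with DAC, 194, 192 and 139 with ATRA, and 243, 233 and 206 with both. The DAC libraries were highest and the ATRA libraries lowest, and no groups overlapped. It rose with DAC by 0.58 ± 0.14 on the log2 scale (adjusted p = 0.00124, or 0.0152 without DAC library 4) and fell with ATRA by 1.71 on the log2 scale (SE 0.14, adjusted p = 6.78e-10). With both agents it was lower than in untreated cells (-1.32 ± 0.14, adjusted p = 1.16e-08) and than with DAC alone (-1.91 ± 0.14, adjusted p = 1.35e-10). It did not pass between DAC + ATRA and ATRA alone (0.39 ± 0.14, adjusted p = 0.0277).

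CST3, cystatin C, the widely made secreted cystatin (chr20:23626706-23637945, 4 exons), had 141, 134 and 140 normalized reads in untreated cells, 224, 188 and 174 with DAC, 175, 157 and 170 with ATRA, and 379, 363 and 348 with both. Every treated library was above every untreated one, and the DAC + ATRA libraries were above all others. The log2 fold change with both agents was 1.39 ± 0.13 (adjusted p = 1.36e-09), and the combination exceeded DAC alone by 0.90 ± 0.13 (adjusted p = 1.19e-05) and ATRA alone by 1.11 ± 0.13 (adjusted p = 9.72e-08). With ATRA alone it was 0.27 ± 0.13, which did not pass (adjusted p = 0.206). The rise with DAC alone was small (0.49 ± 0.13, adjusted p = 0.00321) and did not hold without DAC library 4 (0.39, adjusted p = 0.0234), untreated library 2 (0.46, 0.0167) or untreated library 3 (0.50, 0.0108), with scaling to the library total (0.36, 0.0223) or without the filter on low values (0.49, 0.0206).

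**Figure D3:**
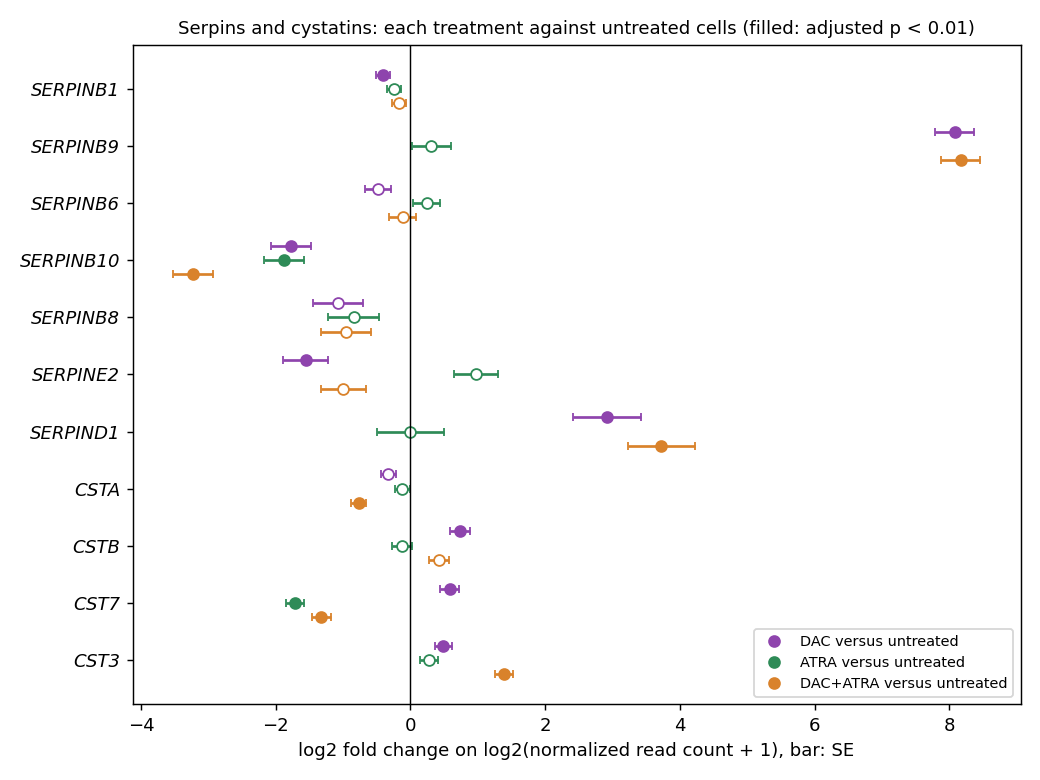
Log2 fold change (horizontal axis, on the log2(normalized read count + 1) scale) of the 11 tested genes against untreated cells for DAC, ATRA and DAC + ATRA; bars are the SE and filled symbols passed at an adjusted p below 0.01. SERPINB10 lies at -1.77, -1.87 and -3.23, while SERPINB9 passes only with DAC in the medium.

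Whether the combination differed from the sum of the single agents was tested as the interaction of DAC with ATRA, the part of the log2 fold change of the combination that the single agents do not sum to. None of the 11 genes passed with limma, where 1.51% of all transcripts did (0.527% above the sum and 0.986% below it), and none passed with edgeR or DESeq2. At an unadjusted p below 0.05, 2 genes stood out with limma and 3 each with edgeR and DESeq2. With limma these were CST3, above the sum by 0.63 ± 0.18 (95% interval 0.25 to 1.00, adjusted p = 0.0603), and SERPINB1, above it by 0.48 ± 0.14 (0.18 to 0.78, adjusted p = 0.0696). For SERPINB10 the interaction was 0.42 ± 0.42 (-0.44 to 1.28), an interval that spans falls larger and smaller than the sum. Its value with both agents rests on few reads, where this log2 scale understates a fall. With scaling to the library total SERPINB1 passed (0.53, adjusted p = 0.00710). A missing call here does not show that the agents acted additively on these genes.

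The proteases these inhibitors are known to act on, with their activators and a receptor, were followed as a list of 42 genes, of which 12 were expressed enough to be tested. With DAC 7 of the 12 rose and 1 fell, with ATRA 2 rose, and with both 9 rose and 1 fell, against the shares of 33.5%, 6.97% and 41.6% of all transcripts. ST14 and CTSK reached 10 normalized reads only in the 6 libraries with DAC and GZMA only in the 3 with DAC alone, so that 3 of the 7 rises with DAC and 2 of the 9 with both, and the medians that include these genes, are in part fixed by the filter. The median log2 fold change over the 12 was 0.67 with DAC, 0.07 with ATRA and 0.88 with both. Cysteine cathepsins, the targets of the cystatins, made up 6 of the 12. CTSZ, CTSS, CTSB and CTSK rose with DAC (1.09, 0.64, 0.70 and 2.06 on the log2 scale), CTSH passed only with both (0.90, adjusted p = 3.86e-05), and CTSS reached 1.57 with both, above DAC alone by 0.93 (adjusted p = 1.96e-06). The transcript counted for CTSC, the target of cystatin F, fell with DAC (-0.86, adjusted p = 2.55e-05), where CST7 rose, and was not called with ATRA (-0.11, adjusted p = 0.720), where CST7 fell. The rows of CTSC and CTSH are transcripts with a retained intron that hold 57.3% and 69.4% of the reads of their genes, so these values are not those of a coding transcript. CTSZ, CTSH and CTSK are read on transcripts with no exon base of their own.

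Of the serine proteases on the list, the targets of SERPINB9, SERPINB1 and SERPINB6 were scarcely read. GZMB had no read, on a transcript without bases of its own, and PRTN3 had no read, with 71 of 987 exon bases free of overlap. The transcripts counted for ELANE and CTSG had 14 and 53 reads over the 12 libraries. That of ELANE has 119 of 1028 exon bases free of overlap and holds 66.7% of the reads of its gene. Reads of these genes could thus have been lost, and their absence is not shown. Urokinase is a target of SERPINE2, and its receptor PLAUR rose with DAC by 1.30 on the log2 scale (adjusted p = 7.22e-05) and with both by 1.22 (adjusted p = 0.000115). PLAU and PLAT encode urokinase and tissue plasminogen activator, and the transcripts counted for them stayed below the minimum with 89 and 4 reads. These were 53.0% and 33.3% of the 168 and 12 reads of the genes, so the place of PLAU may depend on the transcript chosen. ST14, the membrane serine protease matriptase, went from 1.84, 2.73 and 1.85 normalized reads in untreated cells to 600, 812 and 769 with DAC and 779, 965 and 980 with both, and had 3.17, 4.55 and 4.99 with ATRA. GZMA had 15.1, 35.1 and 16.9 normalized reads with DAC and 0 to 4.52 in every other library. It passed the minimum only through the DAC libraries, so that its calls with DAC (2.57, adjusted p = 6.10e-05) and between DAC + ATRA and DAC (-2.24, adjusted p = 0.00114) are in part fixed by that filter.

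**Figure D4:**
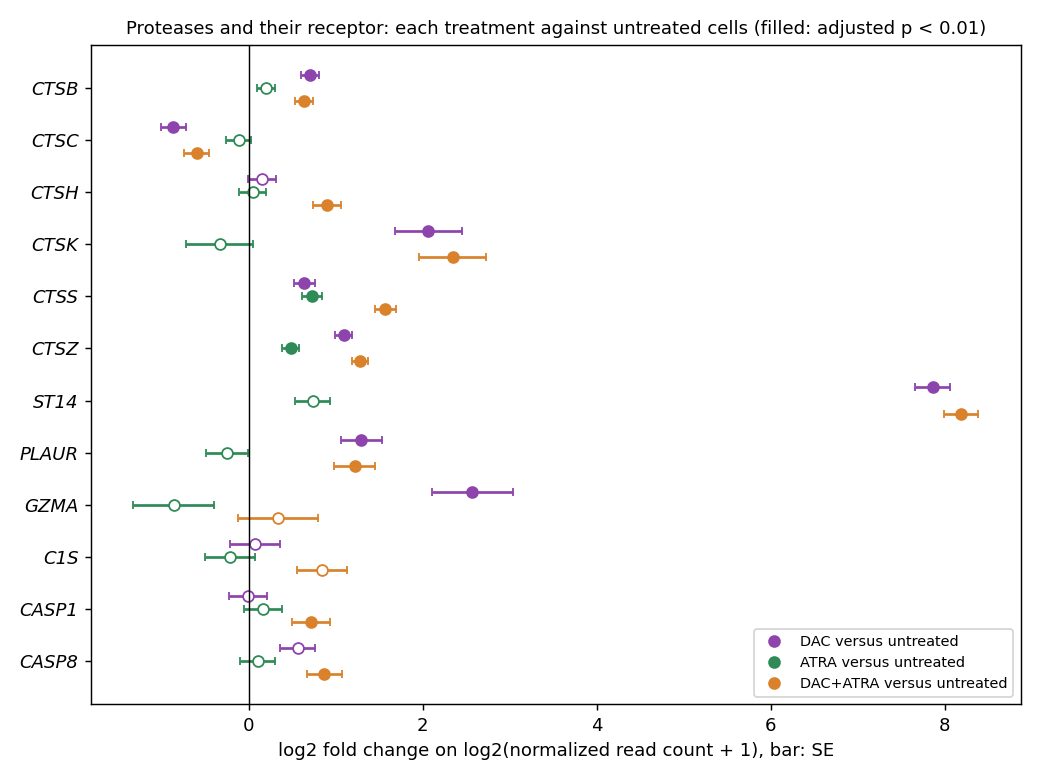
Log2 fold change (horizontal axis, on the log2(normalized read count + 1) scale) of the 12 tested genes of the protease list against untreated cells for DAC, ATRA and DAC + ATRA; bars are the SE and filled symbols passed at an adjusted p below 0.01. ST14 lies at 7.86 with DAC and 8.18 with both, and CTSC is the only gene with filled symbols below 0.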

How the data were processed

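RNA-seq of 12 U937 libraries was analysed. The authors depleted ribosomal RNA, sequenced stranded paired-end libraries and, per the labels, processed reads with FastQC, STAR, HTSeq and DESeq2 on hg38; versions, counting mode and strand setting are not given in the sources used here. The deposited signal values are normalized read counts for 197782 UCSC transcripts, each the reads divided by 1 size factor per library. All values in all 12 libraries were whole reads within 0.1 (100% of values), and these recovered reads, 8042435 to 10683593 per library (median 9874622), served the count tests. Fewer than 3 reads cannot be told from 0, and this limit covers counting error only.

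Transcripts were placed with GENCODE 44, which matched 174768. Transcripts of any type with at least 10 normalized reads in at least 3 libraries (19373) were tested on log2(normalized read count + 1) with limma 3.58.1 (lmFit, eBayes with trend and robust, two-sided) in R 4.3.3, all 12 libraries in 1 fit, with Benjamini-Hochberg adjustment over all transcripts and a threshold of 0.01. Adjusted p-values are from this fit unless another tool is named, and values after ± in log2 fold changes are SE. Fold changes on this scale understate those of low genes. The rule for named genes was that tested genes are described in full and others only if a library reached 10. The protease list (42 genes) and the marker lists hold the transcript with the highest mean per symbol. The genes and lists were chosen with earlier results of these data known. Alternatives were edgeR 4.0.16 (TMM or deposited size factors) and DESeq2 1.42.0 on recovered reads, TMM and library-total scaling, pseudocounts of 0.1 and 5, other filters, protein-coding transcripts only, rows summed by symbol, only the groups compared, a threshold of 0.05 and leaving out each library. Promoters came from RefSeq (GRCh38.p14), 250 bases before to 50 after a start. The fit was tested on simulated data. Of the genes that met the symbol rule, 1 is not reported here, nor counted among those described.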

Additional observations from a re-analysis of the deposited data

How the results depend on the processing

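The counts of serpins and cystatins called stayed within 1.5 times of those reported under edgeR, DESeq2, TMM scaling, both other pseudocounts, protein-coding transcripts only (10 of the 11 genes, without SERPINE2), rows summed by symbol, only the groups compared, no filter and a threshold of 0.05. The exceptions were these. With at least 10 reads required in every library, only 6 of the 11 genes could be tested, and 4 were called with DAC, 1 with ATRA, 3 with DAC + ATRA, 3 between DAC + ATRA and DAC and 3 between DAC + ATRA and ATRA. With scaling to the library total, 1 gene passed for the interaction. Leaving out 1 library at a time gave 6 to 9 genes with DAC, 2 to 2 with ATRA, 6 to 8 with DAC + ATRA, 2 to 4 between DAC + ATRA and DAC, 6 to 7 between DAC + ATRA and ATRA and 0 to 0 for the interaction; between DAC + ATRA and DAC the count was 2 without DAC library 4, where CSTA and SERPINB10 did not pass.

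No called log2 fold change of a single gene changed direction. Of those not called, these did. When single libraries were left out, the range with ATRA was -0.26 to 0.11 for CSTB (highest without ATRA library 9), and with DAC + ATRA -0.24 to 0.026 for SERPINB6 (highest without DAC + ATRA library 11). For SERPINB8 it was -0.060 to 0.21 between DAC + ATRA and DAC (lowest without DAC library 5) and -0.49 to 0.10 between DAC + ATRA and ATRA (above 0 without ATRA library 7 or 8). For the interaction it was -0.026 to 0.31 for SERPINB6 (lowest without ATRA library 7) and -0.38 to 0.084 for SERPINB9 (highest without ATRA library 8), and SERPINB9 was 0.0027 with a pseudocount of 5. With rows summed by symbol SERPINB8 was -0.056 between DAC + ATRA and DAC, and with scaling to the library total SERPINB1 was -0.000362 between DAC + ATRA and ATRA. With ATRA, SERPINB9 ranged from 0.00 to 0.47, reaching 0 without ATRA library 8 but not turning negative. The cause of these changes was not tested.

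No paired analysis was possible because the columns carry no replicate numbers. With 8042435 to 10683593 reads per library, SERPIND1 and the untested genes rest on few reads, and a count of 0 in the 22 genes without reads allows up to 3 reads per library.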
